A study of Mus musculus with 2 samples.

Results

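Mir122, Mir192, Mir194-1, Mir194-2 and Mir215 are the mouse miRNA genes known from hepatocytes (Mir122) and from a pair of linked loci (the other 4). They were taken by gene name, with no threshold on level, and all 5 were found among the 1973 miRNA genes counted. Their levels were measured by short RNA sequencing of liver from healthy B6NCrl embryos at day 12.5, a single group with no treatment and no engineered allele in its labels. Replicate 2 pooled the livers of 88 embryos of both sexes and replicate 1 those of 120. Replicate numbers, tissue identifiers and pool sizes set the pools apart, but they carry 1 donor identifier, and part of the SD may be technical. The extraction method is not given in the labels. With 1 group there was no comparison of conditions, and the values below are levels, ratios between genes and differences between 2 libraries.

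A miRNA is cut from a hairpin in a longer transcript, and 1 or both arms of the hairpin (5p and 3p) give a mature RNA. Bases 2 to 8 of the mature RNA, the seed, pair with target mRNAs and lead to their repression. miR-122 is the characteristic miRNA of hepatocytes, where it acts on lipid and cholesterol metabolism. miR-192, miR-194 and miR-215 are known from epithelia of liver, intestine and kidney, and each linked locus pairs a Mir194 gene with either Mir192 or Mir215.

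The mature sequences show why the copies differ in what a count can tell, so they are printed here for the 4 genes of the linked loci, which RefSeq lists on build GRCm38.p6. Each runs 5′ to 3′, all on the plus strand, and the seed is in capitals.
mmu-miR-192-5p (chr19:6264857-6264877): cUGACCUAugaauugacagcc
mmu-miR-215-5p (chr1:185313610-185313630): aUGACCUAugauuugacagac
mmu-miR-194-5p (chr19:6264658-6264679 in Mir194-2, chr1:185313325-185313346 in Mir194-1): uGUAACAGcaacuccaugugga
mmu-miR-194-2-3p (chr19:6264694-6264715): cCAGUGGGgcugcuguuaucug
mmu-miR-194-1-3p (chr1:185313360-185313381): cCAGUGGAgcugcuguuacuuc

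By shared seed, miR-192-5p and miR-215-5p form 1 group and miR-194-5p, from either gene, another. miR-192-5p and miR-215-5p were identical at 18 of 21 positions. Counted from the 5′ end, with the miR-192-5p base first, they differed by C1A, A12U and C20A, none of them in the seed. The 3p arms of the Mir194 genes were identical at 18 of 22 positions and differed by A8G, C19U, U20C and C22G, with the base of Mir194-1 first. A8G lies in the seed, and miR-194-2-3p shares its seed with a mature miRNA of Mir6926, which had 1 count in replicate 2 and 0 in replicate 1, and with one of Mir7055, which is not analysed here.

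The hairpins of the Mir194 genes are printed whole, with their longest shared run in capitals, because that run decides which reads can be placed.
Mir194-2 (chr19:6264643-6264728): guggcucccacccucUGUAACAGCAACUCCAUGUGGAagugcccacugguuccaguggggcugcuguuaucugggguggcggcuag
Mir194-1 (chr1:185313319-185313385): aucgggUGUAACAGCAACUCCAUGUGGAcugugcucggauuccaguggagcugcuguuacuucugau
The run is 22 bases long and is exactly miR-194-5p, from its first base to its last. Of the 20-base windows of the hairpins, 3 were shared, of the 22-base windows 1, and of the 23-base windows 0. A read of miR-194-5p that adds no further base of its hairpin therefore matches both genes alike. The tables hold such reads in a single line for each library, as aligned to several places, and not under a gene. That line held 3427344 reads in replicate 2 and 3180324 in replicate 1, and how many of them were miR-194-5p is not analysed here. Mir192 and Mir215 shared no run over 12 and 11 bases with any other hairpin of the RefSeq table, and 10 bases with each other.

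Mir122 held nearly all the uniquely placed counts of the 5 genes. Levels are counts on the sense strand per 1000000 such counts on miRNA genes (CPM). Reads aligned to several places are counted under no gene, so all levels, shares and ranks cover uniquely placed reads only. The shares of the 5 genes thus leave out miR-194-5p reads that match both Mir194 genes. In a short RNA library 1 read covers a mature miRNA, so counts were not divided by gene length. There were 3534816 sense counts in replicate 2 and 3447858 in replicate 1, and intervals are 95% exact Clopper-Pearson intervals that cover counting error only. The 5 genes together held 4.98% of the sense counts in replicate 2 and 6.37% in replicate 1. Mir122 made up 94.6% of that sum in replicate 2 (94.5 to 94.7) and 95.6% in replicate 1 (95.6 to 95.7).

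Mir122 (ENSMUSG00000065402.1) had 47128 CPM in replicate 2 (46907 to 47349) and 60913 CPM in replicate 1 (60660 to 61166). These came from 166588 and 210018 counts, and the mean was 54020 ± 9747 CPM (SD, n = 2). The intervals did not overlap, and the gene ranked 4 among all miRNA genes in replicate 2 and 2 in replicate 1. In the GENCODE M21 annotation of mm10 it spans chromosome 18, 65248861 to 65248926, on the plus strand, inside an exon of the long noncoding RNA gene AC157910.3. That gene runs from 65244287 to 65252621 on the same strand.

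Mir192 (ENSMUSG00000065523.1) had 1777 CPM in replicate 2 (1733 to 1821) and 1825 CPM in replicate 1 (1780 to 1871), a mean of 1801 ± 34.1 CPM (SD, n = 2). Mir194-2 (ENSMUSG00000065582.1) had 898 CPM in replicate 2 (867 to 929) and 942 CPM in replicate 1 (910 to 975), a mean of 920 ± 31.6 CPM. For both genes the intervals of the libraries overlapped. Mir192 ranked 83 and 81 in replicates 2 and 1, and Mir194-2 ranked 108 in each.

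In uniquely placed reads, the chromosome 1 genes were close to the limit of detection. Mir215 (ENSMUSG00000065562.1) had 18 counts in replicate 2 and 16 in replicate 1, which is 5.09 CPM (3.02 to 8.05) and 4.64 CPM (2.65 to 7.54). Mir194-1 (ENSMUSG00000065581.1) had 23 counts in replicate 2 and 17 in replicate 1, which is 6.51 CPM (4.12 to 9.76) and 4.93 CPM (2.87 to 7.89). The upper limit that 0 counts would allow (3 counts) is 0.849 CPM in replicate 2 and 0.870 CPM in replicate 1, and both genes were above it. All 4 intervals stayed under 10 CPM, the level that 301 of the 1973 genes reached in both libraries, Mir122, Mir192 and Mir194-2 among them.

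**Figure D1:**
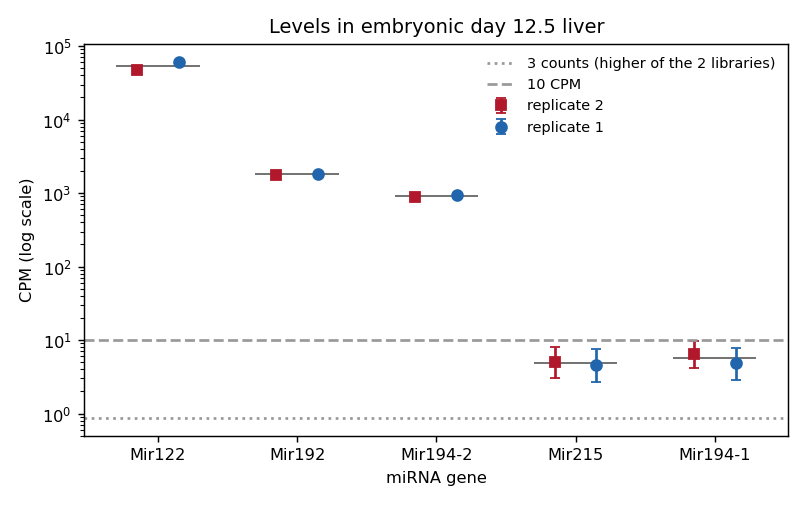
CPM (log scale) of the 5 genes in replicate 2 (red squares) and replicate 1 (blue circles), with 95% exact intervals, and the mean as a grey line. Mir122 lies near 54020 CPM, Mir192 and Mir194-2 at 1801 and 920 CPM, and the chromosome 1 genes under the dashed line at 10 CPM.

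Reads aligned to several places were 31.1% of all reads in replicate 2 and 28.8% in replicate 1. They are counted under no gene, so the ranks below hold for uniquely placed reads only. In the order of mean levels, Mir122 ranked 2 among all miRNA genes. The gene above it was Mir126a, an endothelial miRNA, at 68165 CPM in replicate 2 and 68816 in replicate 1, and the difference of the means exceeded the SD of Mir122. The gene below it, Mir17 of the miR-17-92 cluster, had 53937 and 47827 CPM in replicates 2 and 1, and lay within the SD of Mir122. Mir192 ranked 83 by its mean, next below Mir10b at 1810 ± 114 CPM (SD, n = 2), from which it did not differ beyond the spread. Mir467e followed at 1707 ± 79.7 CPM, farther from Mir192 than either SD, with a level that is uncertain because its hairpin shares 20 bases with another locus. Mir194-2 ranked 110 between Mirlet7f-2 at 942 ± 98.0 CPM and Mir339 at 915 ± 54.6 CPM, and differed from neither beyond the spread. The levels of Mirlet7f-2 and of Mir194-2 itself, and so this rank, are uncertain for the same reason as that of Mir467e. Mir194-1 and Mir215 ranked 343 and 356, and each lay within the spread of its neighbours. These were Mir3057 and Mir3097 for Mir194-1, and Mir3086 and Gm27920 for Mir215. Mir194-1 shares 20 bases with Mir194-2, so its level and rank are uncertain too.

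**Figure D2:**
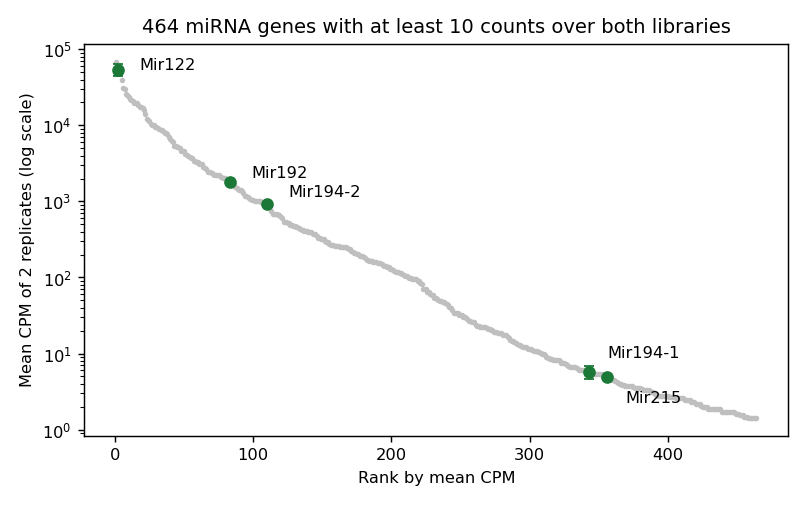
Mean CPM (log scale) against rank for the 464 genes with at least 10 counts over both libraries (grey), with the 5 genes in green and the SD of 2 replicates as bars. Mir122 stands at rank 2, Mir192 and Mir194-2 at 83 and 110, and Mir194-1 and Mir215 at 343 and 356.

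The linked genes lie in the same order and on the plus strand at both loci. On chromosome 19, Mir194-2 (6264643 to 6264728) precedes Mir192 (6264844 to 6264932) by 115 bases, and the pair spans 290 bases. GENCODE M21 places no host gene over this pair, and the nearest gene upstream of Mir194-2 is the autophagy gene Atg2a, which ends 2307 bases away on the same strand. On chromosome 1, Mir194-1 (185313319 to 185313385) precedes Mir215 (185313581 to 185313692) by 195 bases, and the pair spans 374 bases. That pair lies inside an intron of Iars2, the mitochondrial isoleucyl-tRNA synthetase gene, which runs on the opposite strand. The noncoding gene 2010103J01Rik (185312187 to 185313803) runs on the strand of the miRNA genes, with Mir194-1 in its intron and Mir215 in an exon.

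**Figure D3:**
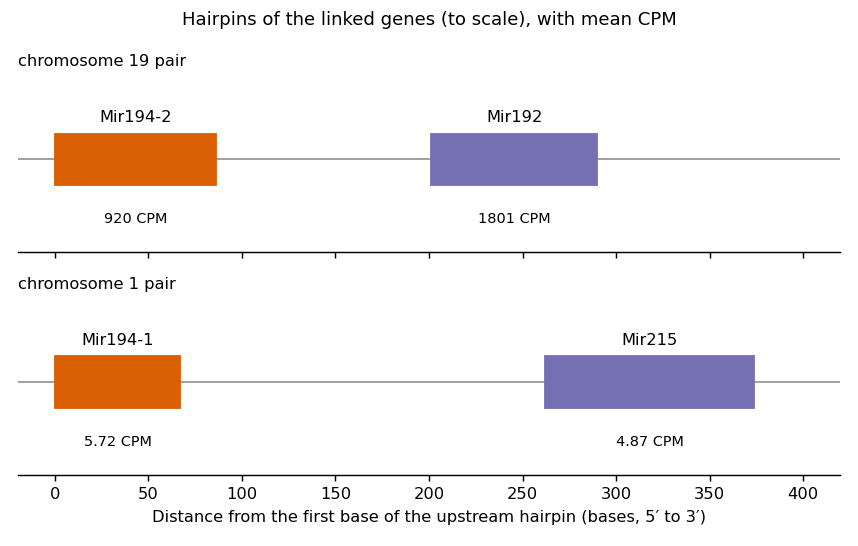
Hairpins of both pairs drawn to scale as distance in bases from the first base of the upstream hairpin, miR-194 genes in orange and their partners in purple, with mean CPM below. The gap is 115 bases in the chromosome 19 pair and 195 bases in the chromosome 1 pair.

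Within each locus the partners had uniquely placed counts of the same order. Mir192 exceeded Mir194-2 by 1.98 times in replicate 2 (1.90 to 2.07) and 1.94 times in replicate 1 (1.86 to 2.02), a mean ratio of 1.96 ± 0.0301 (SD, n = 2). Reads that match both Mir194 genes are counted under neither, so this ratio, its interval and its direction hold for uniquely placed reads only. Mir215 over Mir194-1 gave 0.783 in replicate 2 (0.398 to 1.52) and 0.941 in replicate 1 (0.445 to 1.98). Those intervals include 1, so at this depth no difference between Mir215 and Mir194-1 was detectable in uniquely placed reads. Mir194-1 too lacks the reads that match both Mir194 genes, so whether the genes differ in all their reads was not tested. Of the uniquely placed counts of the 4 genes, the chromosome 19 pair held 99.6% in replicate 2 (99.4 to 99.7). In replicate 1 it held 99.7% (99.5 to 99.8).

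The ratio between Mir192 and Mir194-2 moved little between the libraries beside that of other neighbours. Of miRNA genes on 1 strand with a gap of up to 1000 bases, 76 neighbouring pairs had counts for both genes in both libraries and at least 10 for each gene in all. Their median ratio of the higher to the lower gene was 8.07, and 12 pairs had a smaller mean ratio than Mir192 and Mir194-2. From replicate to replicate the median pair shifted its ratio by 0.21 on the log2 scale, against 0.03 for Mir192 and Mir194-2, and 3 of the 76 shifted less. Mir194-1 and Mir215 shifted by 0.27, with counts of 16 to 23. The intervals of the ratio of Mir192 to Mir194-2 overlapped between the libraries, so its shift lies within counting error. Pairs with few counts carry a larger counting error, so the order of shifts depends on depth. These pairs include genes that share sequence with other loci, and the comparison is a description with no test.

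Counts differed far more between the loci than within them. Mir194-2 exceeded Mir194-1 by 138 times in replicate 2 (91.8 to 218) and 191 times in replicate 1 (119 to 328), a mean of 165 ± 37.6 (SD, n = 2). Since reads that hold no more than miR-194-5p match both genes, this ratio covers only reads placed at 1 gene, and the share of miR-194-5p that each gene makes was not tested. Mir192 exceeded Mir215, with which it shares a seed, by 349 times in replicate 2 (221 to 589) and 393 times in replicate 1 (242 to 688). Their mature sequences differ, and Mir192 held 99.7% of the counts of the pair in replicate 2 (99.5 to 99.8) and 99.7% in replicate 1 (99.6 to 99.9). For both ratios the intervals of the libraries overlapped.

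Among genes that encode an identical mature miRNA, the Mir194 pair had the widest gap in uniquely placed reads of those measured. RefSeq's table gave 23 such pairs with at least 100 counts, and both genes had counts in both libraries in each. Their mean ratio of the higher to the lower gene lay between 1.61 and 165, with a median of 6.56. Next came Mir199b over Mir199a-1, with ratios of 108 in replicate 2 and 37.3 in replicate 1. The replicate 2 value of that pair lies inside the replicate 2 interval of Mir194-2 over Mir194-1. So does that of Mir196a-2 over Mir196a-1, with ratios of 105 in replicate 2 and 13.75 in replicate 1. Mir196a-1 had 1 count in replicate 2 and 4 in replicate 1. Several pairs share a gene, and each ratio holds only for reads that align to 1 place. Reads that hold no more than the identical mature miRNA match both genes. The ratios therefore do not rank how much of that miRNA each gene makes. Genes were paired by an identical mature miRNA from either arm, so the other arms may differ.

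**Figure D4:**
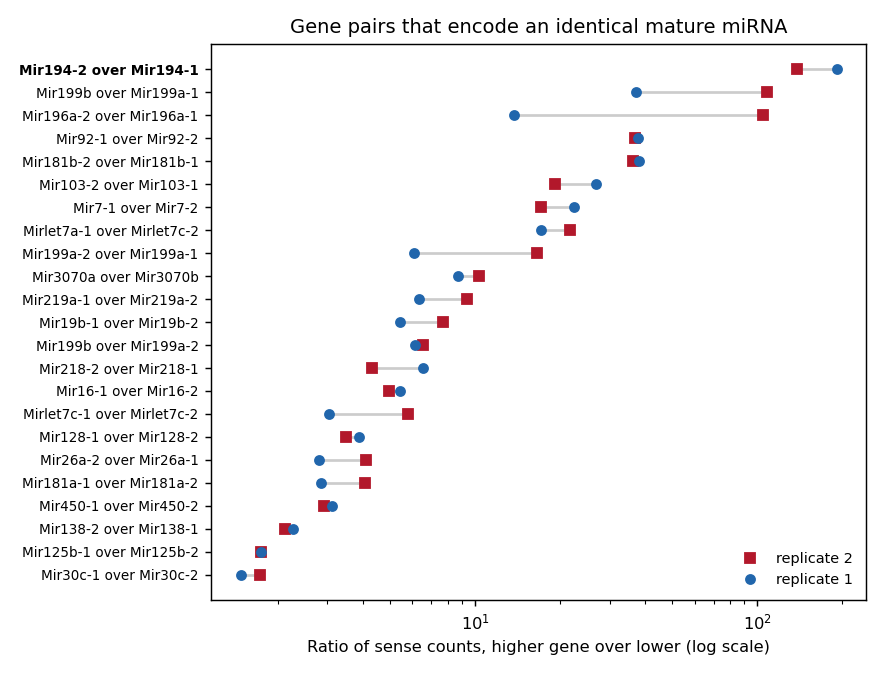
Ratio of sense counts (log scale), higher gene over lower, for 23 pairs of genes with an identical mature miRNA, in replicate 2 (red squares) and replicate 1 (blue circles). Mir194-2 over Mir194-1 is at the top, with 138 in replicate 2 and 191 in replicate 1.

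Judged against counting error alone, Mir122 was the 1 gene of the 5 that differed between the libraries. It passed in neither of the edgeR tests given below. The intervals of Mir192 and Mir194-2 did not reach the shift of Mir122. Each of the 464 genes with at least 10 counts went through a two-sided exact binomial test, with TMM-scaled library sizes and p-values adjusted by the Benjamini-Hochberg method over all of them at 0.05. The test sets 1 library against 1 library and counts counting error only. Of the 5 genes, 1 passed, against 40.3% of all genes tested, and it was lower in replicate 2, against 18.3% of all. Passing depends on depth, and with a filter at 100 counts 181 of 289 genes passed. Over all genes 102 were higher and 85 lower in replicate 2, and with total counts as library sizes 77 were higher and 101 lower. The log2 ratio of Mir122, replicate 2 over replicate 1, was -0.32 (95% interval -0.32 to -0.31). Of all genes tested, 266 had a smaller absolute log2 ratio, and the median over all was 0.26.

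The log2 ratio was 0.02 for Mir192 (-0.03 to 0.07, adjusted p = 0.698 in the exact binomial test) and -0.02 for Mir194-2 (-0.09 to 0.06, adjusted p = 0.789 in the exact binomial test). For Mir215 it was 0.18 (-0.87 to 1.26) and for Mir194-1 0.44 (-0.51 to 1.45), intervals too wide to tell a shift of the size of Mir122's from none. Mir122 exceeded Mir192 by 26.5 times in replicate 2 (25.9 to 27.2) and 33.4 times in replicate 1 (32.6 to 34.2), and these intervals did not overlap. In edgeR's exact test with a coefficient of variation of 0.1 assumed between pools, Mir122 did not pass (adjusted p = 0.597), and 12 genes did. With the coefficient estimated from the libraries, at 0.162, its adjusted p in edgeR's exact test was 1 and 5 genes passed. That estimate takes the libraries as replicates of each other, so the differences under test enter it and a pass becomes less likely. In a bulk sample, fewer cells of a type and less RNA per cell cannot be told apart.

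**Figure D5:**
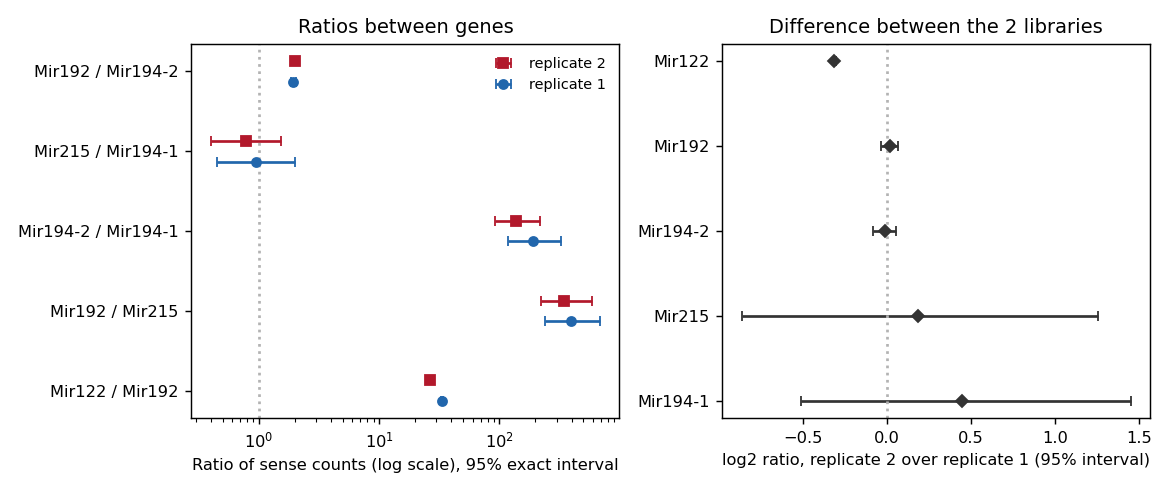
Left, ratios of sense counts between genes (log scale) in replicate 2 (red squares) and replicate 1 (blue circles) with 95% exact intervals. Right, log2 ratio of replicate 2 over replicate 1 for each gene with its 95% interval; Mir122 lies at -0.32, and the intervals of the other genes include 0.

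Other miRNAs known from hepatocytes or adult liver did not share 1 direction. The tables hold miRNA genes alone, so mRNA markers of hepatocytes were not analysed here. Of 7 listed genes, 6 were analysed, and Mir378a was not. They held 2.54% of sense counts in replicate 2 and 2.64% in replicate 1, and 5 of the 6 reached 10 CPM in both. Their median was 2651 CPM, against 52.7 CPM over the 464 genes tested. In the exact binomial test 3 were higher and 2 lower in replicate 2, where 22.0% of all genes tested were higher and 18.3% lower. The 6 genes had a median log2 ratio of 0.15, against 0.02 over all genes tested.

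Mir22 was lower in replicate 2, at 7913 CPM against 9327 CPM in replicate 1, a log2 ratio of -0.18. Mir148a, abundant in adult liver, was also lower, at 1076 against 1203 CPM, a log2 ratio of -0.11. Mir33, which lies in the sterol regulator gene Srebf2 and represses the cholesterol exporter Abca1, was higher, at 112 against 90.8 CPM, a log2 ratio of 0.36. Mir101b was higher as well, at 4453 against 3871 CPM, and shares 20 bases with another locus, so its level is uncertain. Mir30a had 11877 CPM in replicate 2 and 11929 CPM in replicate 1, and passed as higher with a log2 ratio of 0.05. By total counts its level was lower in replicate 2, so its direction depended on the scaling. Mir802, known from adult liver, had 12 counts in replicate 2 and 10 in replicate 1, or 3.39 and 2.90 CPM.

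Some markers of other cells also differed between the libraries, beside the lower Mir122 of replicate 2. The erythroid list (Mir451a, Mir144 and Mir486) held 3.74% of sense counts in replicate 2 and 1.69% in replicate 1. Mir451a, which acts in red cell maturation, had 32496 CPM in replicate 2 and 12422 in replicate 1, while Mir486 was lower in replicate 2, at 892 against 1204 CPM. The epithelial list held 0.268% in replicate 2 and 0.391% in replicate 1. The 5 miR-200 family genes in it were lower in replicate 2, as were 18.3% of all genes tested, with log2 ratios from -0.70 to -0.47, and Mir203, a skin miRNA, was higher with 0.22. The endothelial list held 7.99% and 7.96% in replicates 2 and 1, with Mir126a at 68165 and 68816 CPM. All 3 of its genes passed as higher in replicate 2, as did 22.0% of all genes tested. By total counts Mir126a was lower in replicate 2. The myeloid and lymphoid list held 0.595% and 0.739%, with Mir223 at 5584 and 6929 CPM. Of its 4 genes, Mir223 and Mir146a passed as lower, as did 18.3% of all, and Mir155 and Mir150 did not pass. Mir146a shares 20 bases with another locus, so its level is uncertain. No marker of these lists was at 0, and the lowest was Mir150 at 17.3 CPM in replicate 2 and 20.01 CPM in replicate 1. Whether these differences have a part in that of Mir122 was not tested.

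By level over the 2 libraries, the genes most like each of the 3 most abundant of the 5 belonged to other families. The measure was the Euclidean distance of log2(CPM + 1) over 2 libraries. The nearest to Mir122 were Mir335 at 0.199, Mir17 at 0.3996 and Mir126a at 0.561. The nearest to Mir192 were Mir467e at 0.117, Mir10b at 0.118 and Mir107 at 0.193. For Mir194-2 they were Mir27b at 0.108, Mirlet7f-2 at 0.110 and Mir542 at 0.111. Mir467e, Mir107, Mir27b, Mirlet7f-2 and Mir194-2 itself share 20 bases with another locus, so distances that involve them are uncertain.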

How the data were processed

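The authors deposited whole-number read counts per miRNA gene for each library, taken from the values as raw counts. The lists deposited with them name mm10 as the assembly and GENCODE M4 as the annotation, and no aligner or counter is named in the sources used here. Counts are for both strands, the sense strand (used here) and the opposite strand. The lines for reads of no gene held 67.9% of reads in replicate 2 and 68.8% in replicate 1 and were left out of library sizes. Total depth was 11013976 and 11057424 reads, in that order. Names and positions came from GENCODE M21 on the same assembly, where 1894 of 1973 identifiers were found, and sequences from RefSeq (GRCm38.p6), which matched 4 of the 5 genes. Tests used R 4.3.3 with edgeR 4.0.16. DESeq2 1.42.0 gave the alternative size factors (RLE). A log2 ratio has 0.5 counts added. The binomial test was tested on simulated counts with counting error only, so that check does not cover variation between pools. Named genes are the members, their 2 neighbours in rank, the 3 nearest by level to the 3 highest members, genes with a shared seed, and the lists. Members and lists were chosen with earlier results of these data known. The comparisons with other linked pairs and identical copies were added after values were seen. Mir146a was matched as Mir146 through RefSeq synonyms.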

Additional observations from a re-analysis of the deposited data

How the results depend on the processing

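Ratios between members moved by less than their SD with counts of both strands and with 0.5 counts added. Either replicate alone lies within 1 SD of a mean of 2 by construction, and TMM and RLE factors cancel in that mean, so these alternatives say nothing about the stability of levels or ratios. Levels moved with the denominator. Per 1000000 of all reads, Mir122 stood at 17059, Mir192 at 569.6, Mir194-2 at 291, Mir215 at 1.54 and Mir194-1 at 1.81. With counts of both strands, Mir192, Mir194-2 and Mir215 stood at 1628, 832 and 4.40 CPM, and at 1628, 832 and 4.40 CPM with opposite-strand counts of unlisted genes added to the denominator, an alternative chosen after seeing the data. Without Mir126a and Mir122 in the denominator they stood at 2053, 1049 and 5.54 CPM, and with genes that share no 20 bases at 2014, 1029 and 5.44 CPM. Apart from the denominator of all reads, where they moved beyond their SD, Mir122 and Mir194-1 moved by less than it. Their SD was 18.0% and 19.5% of their means. Their levels were 61631 and 6.51 CPM without Mir126a and Mir122 in the denominator, and 48836 and 5.82 CPM with counts of both strands. In edgeR's exact test, 12 genes differed at the assumed and 5 at the estimated coefficient of variation, against 187 in the binomial test, and Mir122 passed in neither edgeR test. The estimated coefficient came from the libraries under test, so their differences enter it. The log2 ratio of Mir192 was -0.039 with total counts and -0.0028 with RLE factors. The split of genes higher and lower in replicate 2 was 102 and 85 with TMM and 77 and 101 with total counts. In the binomial test, filters at 1 and 100 counts called 175 of 754 and 181 of 289 genes tested. With the filter used above, 187 of 464 were called. The share of tested genes that passed thus rose with the filter, though the counts of genes called were close. With 1 library left out no difference between libraries can be had. Depth limits Mir215 and Mir194-1, with 16 to 23 counts a library. Mir194-1 also lacks the reads that match both Mir194 genes.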

Other observations

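On the strand opposite to the 5 genes, reads were few. Mir194-1 had 2 in replicate 2 and 3 in replicate 1, beside 23 and 17 on its own strand. Mir122 had 1 in replicate 2 and 0 in replicate 1, and Mir192, Mir194-2 and Mir215 had 0 in both.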
